A study of Mus musculus with 6 samples.

Results

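The 10 genes described here make up the early granulocyte and monocyte program of blood progenitors. They are Mpo, Elane, Prtn3 and Ctsg, which encode enzymes of the primary granule, Ms4a3, which encodes a membrane protein of granulocyte-monocyte progenitors, the transcription factor genes Cebpa, Cebpe, Spi1 and Irf8, and the receptor gene Csf1r. They were chosen by gene name, and all 10 were found among the 19978 genes of the deposited table. Their RNA was read in hematopoietic stem cells, from which all blood lineages arise, sorted from mouse bone marrow at 100 cells per sample. The libraries were made by a low-input full-length method (Smart-seq2). Of the 6 libraries, 3 are labelled as conditional knockouts (cKO) of Piezo1, the gene of an ion channel opened by mechanical force, and 3 as wild type (WT). The Cre driver, the deleted exons and the age of the mice are not given in the sources used here, nor is it stated that each library had its own mouse, so p-values speak only of the spread between these samples, and that spread may be technical. The design sets stem cells labelled as lacking Piezo1 against WT stem cells.

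In the marrow, stem cells pass through multipotent and then granulocyte-monocyte progenitors before they become neutrophils or monocytes. PU.1, the product of Spi1, and C/EBP-alpha, the product of Cebpa, open the myeloid program, C/EBP-epsilon acts later in granulocyte maturation, and IRF8 favours monocytes and dendritic cells over neutrophils. Promyelocytes fill the primary granules with myeloperoxidase (Mpo) and with the serine proteases neutrophil elastase (Elane), proteinase 3 (Prtn3) and cathepsin G (Ctsg). CSF1R is the receptor through which CSF1 and IL-34 sustain monocytes and macrophages. Stem cells are known to hold low levels of some of these transcripts before they commit.

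Gene positions are given as deposited, and they equal GENCODE M21 (GRCm38) for 7 of the 10 genes and differ in the end alone for Ms4a3, Spi1 and Csf1r, although the submitters' processing notes name GRCm39. All are protein-coding genes, and each value is that of a whole gene.

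Promoter sequences of the granule enzyme genes are shown because PU.1 and C/EBP factors are known to act on these genes, because the genes of these factors are themselves in the set, and because Prtn3 and Elane lie side by side on chromosome 10 yet had unlike levels. The sequences are from RefSeq on GRCm38.p6, 5′ to 3′ on the strand of the gene. Each begins 250 bases before the RefSeq start and stops where an exon of the gene begins in GENCODE M21 or at the RefSeq start. Capitals mark the letters AGGAAGT, a core form of the PU.1 motif, found on either strand.
Prtn3 promoter, chr10:79879417-79879613, plus strand: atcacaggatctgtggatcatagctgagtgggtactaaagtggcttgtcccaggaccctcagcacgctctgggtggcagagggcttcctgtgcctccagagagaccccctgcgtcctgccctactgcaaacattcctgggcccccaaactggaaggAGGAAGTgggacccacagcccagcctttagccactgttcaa
Elane promoter, chr10:79886062-79886246, plus strand: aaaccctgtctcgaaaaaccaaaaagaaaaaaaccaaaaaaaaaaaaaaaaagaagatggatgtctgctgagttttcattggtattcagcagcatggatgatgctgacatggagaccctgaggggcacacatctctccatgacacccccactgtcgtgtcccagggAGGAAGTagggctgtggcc
Ctsg promoter, chr14:56102575-56102824, minus strand: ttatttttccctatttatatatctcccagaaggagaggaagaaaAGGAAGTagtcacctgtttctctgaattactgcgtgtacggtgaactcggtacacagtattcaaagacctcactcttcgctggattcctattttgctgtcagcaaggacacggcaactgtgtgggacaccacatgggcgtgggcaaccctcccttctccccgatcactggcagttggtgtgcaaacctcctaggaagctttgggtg
Mpo promoter, chr11:87793534-87793580, plus strand: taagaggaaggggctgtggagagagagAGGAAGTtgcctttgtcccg
The Prtn3 sequence lies inside the deposited span of that gene, whose first annotated exon is further upstream.

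RefSeq promoters were found for 7 of the 10 genes, and the 4 granule enzyme genes each held AGGAAGT once, on the strand of the gene, within 250 bases before the start, against 7.69% of the 32851 promoters of the mouse table. The match began 94 bases before the RefSeq start in Prtn3, 84 in Elane, 206 in Ctsg and 223 in Mpo. No promoter of the 7 genes held the C/EBP letters TTGCNNAA, which 9.56% of all promoters held, or the composite motif of PU.1 with IRF, which 2.3% held, both read on either strand. No match overlapped another motif searched, and a match is a description of the letters and not a measured site. The motifs were chosen after the promoters had been read, so no test was made of them.

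The libraries differed widely in depth. Total counts were 31252820, 72116120 and 69972499 in the libraries labelled cKO 1, 2 and 3, against 18035239, 64794532 and 3907259 in WT 1, 2 and 3. The targeted gene did not follow the labels. The FPKM of Piezo1, a level scaled to transcript length and depth, was 0.175, 8.81 and 0.819 in the labelled cKO libraries, against 0.539, 3.97 and 1.57 in WT. The highest and the lowest value both stood in libraries labelled cKO. Every direction given here thus rests on labels that the level of this gene did not bear out. The deleted exons are not known, so the level of the whole gene may include RNA of a deleted allele. Its log2 fold change was 1.20, standard error 2.21 (edgeR, adjusted p = 0.843), and its sign changed with the scaling. Of 12 stem cell markers, 6, 8 and 8 had an FPKM of at least 1 in labelled cKO 1, 2 and 3, against 2, 9 and 3 in WT 1, 2 and 3. In WT 1 almost all of their summed FPKM of 610 came from Ly6a, at 601. The 10 mature neutrophil markers, all in the table, summed to FPKM values between 866 and 37503 in labelled cKO, against 272 to 29853 in WT, with 0 to 3 of them at 0 counts. The 8 monocyte and macrophage markers in the table, of 9 listed, summed to 75.5 to 391, against 4.02 to 22.0 in WT, and Ms4a6c alone gave 388, 97.2 and 74.7 of the labelled cKO values. B-lineage markers (6 in the table) summed to 1.95 to 7.35, against 18.9 to 88.1 in WT, and erythroid markers (7) to 1990 to 2999.6, against 10107 to 22699 in WT. The FPKM ranges of these 3 lists did not overlap, as for 10.5% of single genes in the table. Without Ms4a6c, the other 7 monocyte markers summed to 0.413 to 2.27 in the labelled cKO, against 3.51 to 22.0 in WT, which is the opposite order. Most of these WT sums came from Cd68, at 2.38, 21.7 and 7.77, against 1.42, 0.168 and 0.489 in the labelled cKO. Without Cd79b, the B-lineage sums overlapped, at 1.68 to 6.23 in the labelled cKO, against 2.29 to 44.9 in WT. Without Hbb-bs, the erythroid sums were 1288 to 1701 in the labelled cKO, against 6029 to 8714 in WT. The ranges overlapped for T and NK markers (0.924 to 183, against 2.89 to 861 in WT), megakaryocyte markers (28.9 to 294, against 16.4 to 1827), dendritic markers (0.566 to 314, against 5.601 to 73.4) and mast cell, basophil and eosinophil markers (0.159 to 207, against 0.0335 to 0.919). Without Pf4, the other 4 megakaryocyte markers did not overlap, at 22.7 to 179 in the labelled cKO, against 3.65 to 12.1 in WT. Most of these labelled cKO sums came from Itga2b, at 177, 16.6 and 28.2. The part of these cells in the results was not tested. In such bulk samples, fewer cells of a type and less RNA per cell cannot be told apart.

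Prtn3, Ctsg, Ms4a3 and Spi1 differed in which libraries held their higher levels, 1 to 3 for each gene. They reached 200 counts in at least 1 library, a line drawn after the values were seen. These are 4 of the 10, a share near the 42.7% of all genes in the table that did so. The other 6, Mpo, Elane, Cebpa, Cebpe, Irf8 and Csf1r, stayed below it in all 6 libraries. Of the 10 genes, 1, 1 and 2 reached the line in labelled cKO 1, 2 and 3, against 0, 3 and 0 in WT 1, 2 and 3. Of all genes, 13.2%, 21.4% and 22.8% reached it in labelled cKO 1, 2 and 3, against 7.59%, 28.6% and 3.04% in WT 1, 2 and 3, so the counts of the set are near the background. In FPKM, no gene of the 10 had all labelled cKO values above or all below the WT values, where 10.5% of all genes with a count did.

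**Figure D1:**
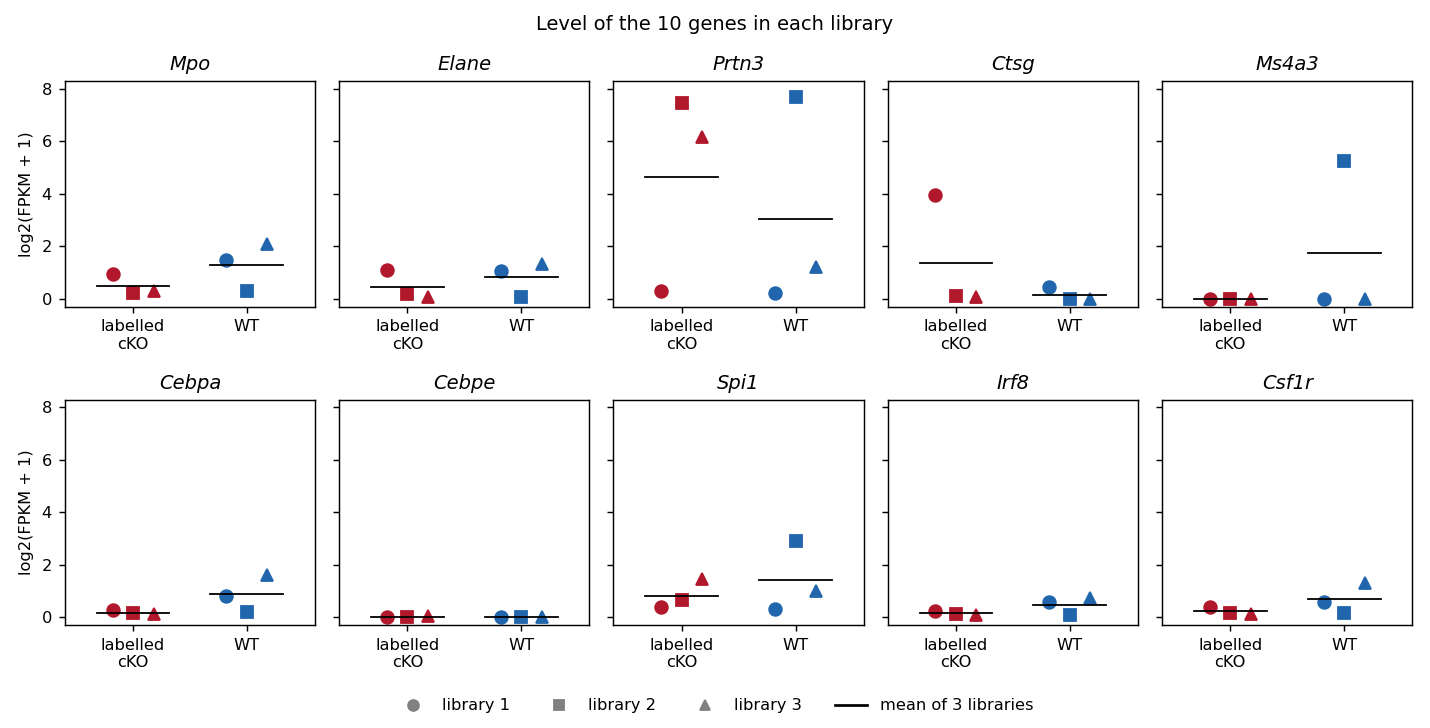
Level of each of the 10 genes, as log2(FPKM + 1), in the 3 libraries labelled cKO and the 3 WT libraries, with symbols for library 1, 2 and 3 and a line at the mean of a genotype. Prtn3 was high in labelled cKO 2, labelled cKO 3 and WT 2, Ctsg in labelled cKO 1 and Ms4a3 in WT 2, and the genotypes overlapped or tied for every gene.

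Among the granule enzymes, Prtn3 was the one with the most counts. Prtn3 (ENSMUSG00000057729, chromosome 10, 79874476 to 79883174, plus strand) had an FPKM of 0.212, 174 and 70.3 in labelled cKO 1, 2 and 3, against 0.169, 207 and 1.31 in WT 1, 2 and 3. These values stood on 16, 24019 and 9472 counts in the labelled cKO libraries, against 8, 25998 and 15 in WT. The gene was therefore high in 2 of 3 labelled cKO libraries and in 1 of 3 WT libraries, and nearly absent from the others of both genotypes. The means were 81.5 ± 87.5 in the labelled cKO and 69.6 ± 119 in WT (SD, n = 3), so the spread within a genotype was larger than either mean. The log2 fold change was 0.75 and its standard error 2.40 (edgeR's quasi-likelihood test, adjusted p = 0.911). Leaving out labelled cKO 2 turned it to -0.60, and leaving out WT 2 moved it to 7.01, with adjusted p between 0.278 and 1.00 over all alternatives, the upper value from a fit with WT 2 as the one WT library. The 3 libraries with Prtn3 were those with the highest total counts, and Prtn3 was the only gene of the 10 whose level was higher in each of them than in each of the other 3. Among all genes tested, 25.3% had that order, and the part of depth in it was not tested. Mature neutrophil markers did not follow the same libraries, since they summed to an FPKM of 37503 in labelled cKO 2, 3886 in labelled cKO 3 and 272 in WT 2.

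Elane, the neighbour of Prtn3, was not raised with it. Elane (ENSMUSG00000020125, chromosome 10, 79886247 to 79888215, plus strand) begins 3072 bases beyond the end of Prtn3. Its FPKM was 1.12, 0.118 and 0.0511 in labelled cKO 1, 2 and 3, against 1.09, 0.0562 and 1.48 in WT 1, 2 and 3. These levels stood on 42, 10 and 4 counts in the labelled cKO libraries, against 24, 4 and 8 in WT. By FPKM, Elane was thus lowest in the 3 libraries in which Prtn3 was highest, which were also the deepest. Its counts did not keep that order, with 10 in labelled cKO 2 and 8 in WT 3. The 2654 genes with few counts in every library also had their lowest median FPKM there. It was 0.0396, 0.0458 and 0.0567 in labelled cKO 2, labelled cKO 3 and WT 2, against 0.133 to 0.795 elsewhere. The promoters of Prtn3 and Elane both hold the PU.1 letters shown above. The log2 fold change of Elane was -0.65 and its standard error 1.41 (edgeR, adjusted p = 0.865). It was -5.17 without labelled cKO 1 and 0.64 in the fit with no filter on low values, with adjusted p between 0.371 and 1.00 over all alternatives. Beyond Elane, Cfd, which encodes complement factor D, had 20, 19 and 9 counts in the labelled cKO libraries, against 36, 15 and 0 in WT. Prss57, which encodes another neutrophil serine protease, had 5 counts in WT 1 and none elsewhere. Plppr3, on the opposite strand, overlaps the first 159 bases of the deposited span of Prtn3, and the kit described in the labels marks no strand. It had 0 and 0 counts in labelled cKO 2 and 3 and 19 in WT 2, the libraries with Prtn3, and its highest count, 720, was in WT 1.

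**Figure D2:**
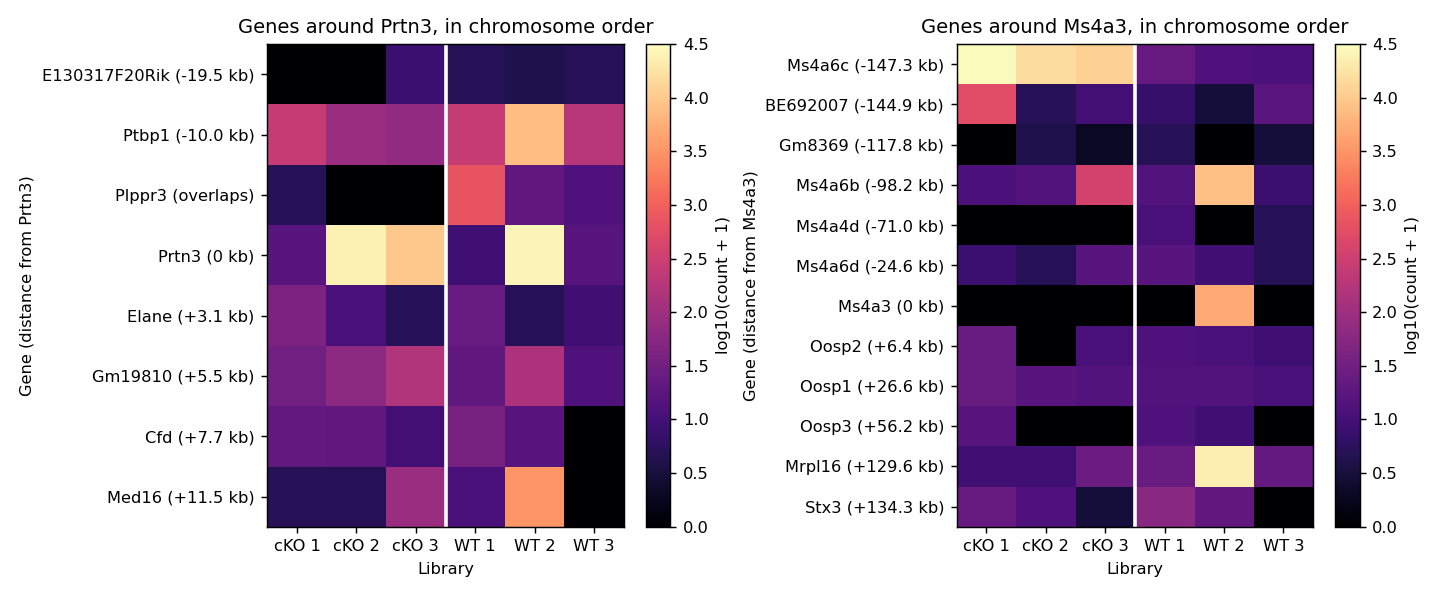
Counts, as log10(count + 1), of the genes of the table within 25000 bases of Prtn3 (left) and 150000 bases of Ms4a3 (right), in chromosome order with the distance from each gene, for the libraries labelled cKO and WT. Plppr3 and Elane beside Prtn3, and Ms4a6d and Oosp2 beside Ms4a3, did not have the high counts of these genes.

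Ctsg, the third serine protease, was seen in a different library. Ctsg (ENSMUSG00000040314, chromosome 14, 56099881 to 56102574, minus strand) had an FPKM of 14.6, 0.0701 and 0.0498 in labelled cKO 1, 2 and 3, against 0.343, 0 and 0 in WT 1, 2 and 3. Of its 581 counts, 563 (96.9%) were in labelled cKO 1. A count of 0 allows up to 3 counts, a limit for counting error alone since no molecular identifiers were used, which is an FPKM of 0.0393 in WT 2 and 0.514 in WT 3. Many small counts were multiples of 4 and may not be single reads, so this limit may be too low. Ctsg was thus high in the 1 labelled cKO library that lacked Prtn3. It was not tested with the filter, for which a gene had to reach an FPKM of 1 in 3 or more libraries. In a fit with no such filter, its log2 fold change was 6.36 and its standard error 2.83 (edgeR, unadjusted p = 0.0245, adjusted p = 0.361), and it rests on that library.

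Mpo, whose product makes hypochlorous acid, had few counts everywhere. Mpo (ENSMUSG00000009350, chromosome 11, 87793581 to 87804413, plus strand) had an FPKM of 0.915, 0.168 and 0.234 in labelled cKO 1, 2 and 3, against 1.75, 0.215 and 3.27 in WT 1, 2 and 3. The counts behind them were 119, 48 and 63 in the labelled cKO libraries, against 130, 54 and 62 in WT. The counts of WT 3 and labelled cKO 3 were almost the same, while the FPKM was 3.27 in WT 3, the shallowest library, and 0.234 in labelled cKO 3. With no filter the log2 fold change was -0.20 and its standard error 2.02 (edgeR, adjusted p = 0.974). GENCODE M21 gives an antisense gene that overlaps Mpo by 5361 bases, so these few counts cannot be assigned to a strand.

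Ms4a3 was found in 1 library of 6. Ms4a3 (ENSMUSG00000024681, chromosome 19, 11629496 to 11640834, minus strand) had 5054 counts and an FPKM of 37.1 in WT 2, and no count in the 3 labelled cKO libraries or in WT 1 and WT 3. The count of 0 allows an FPKM of up to 0.0425, 0.0200 and 0.0205 in labelled cKO 1, 2 and 3, and of up to 0.0737 in WT 1 and 0.287 in WT 3. As for Ctsg, these limits may be too low. WT 1 and WT 3 were therefore at 0 like the labelled cKO libraries. The fit with no filter gave an unadjusted p of 0.00259 and an adjusted p of 0.111 (edgeR), and no fold is given because all labelled cKO libraries and 2 of 3 WT libraries were at 0. Of the other Ms4a genes near it, Ms4a6b had 11, 14 and 380 counts in labelled cKO 1, 2 and 3, against 14, 8196 and 7 in WT. It was thus also highest in WT 2, at a distance of 98239 bases. So was Mrpl16, which is not an Ms4a gene, at 129556 bases. Mrpl16 had 22663 counts in WT 2 and at most 26 in any other library. Ms4a6c, at 147303 bases, was high in every library labelled cKO instead, with 29769, 15871 and 11912 counts in the labelled cKO libraries, against 23, 12 and 11 in WT.

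Of the transcription factor genes, Spi1 alone had more than 100 counts in any library. Spi1 (ENSMUSG00000002111, chromosome 2, 91082390 to 91114366, plus strand) had an FPKM of 0.309, 0.559 and 1.72 in labelled cKO 1, 2 and 3, against 0.245, 6.39 and 1.02 in WT 1, 2 and 3. It had 32, 121 and 361 counts in the labelled cKO libraries, against 15, 1249 and 16 in WT. WT 2 gave 69.6% of all its counts, and the WT libraries other than WT 2 lay within or below the range of the labelled cKO. The log2 fold change was -1.14 and its standard error 1.57 (edgeR, adjusted p = 0.804). Leaving out WT 2 reversed the sign, to 0.76 (edgeR, adjusted p = 0.693), and adjusted p ran from 0.360 to 1.00 over the alternatives.

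Cebpa and Cebpe stood on very few counts. Cebpa (ENSMUSG00000034957, chromosome 7, 35119293 to 35121928, plus strand) had an FPKM of 0.211, 0.107 and 0.0734 in labelled cKO 1, 2 and 3, against 0.755, 0.148 and 2.08 in WT 1, 2 and 3. These were 21, 23 and 16 counts in the labelled cKO libraries, against 43, 29 and 30 in WT. Every WT count was above every labelled cKO count, but raw counts are not scaled for depth. The share of all genes with such an order in raw counts was not computed. The FPKM ranges overlapped, and the fit with no filter gave -0.96 on the log2 scale, standard error 1.61 (edgeR, adjusted p = 0.804). Cebpe (ENSMUSG00000052435, chromosome 14, 54710360 to 54712174, minus strand) had 5 counts in labelled cKO 3 and none in the other 5 libraries. Its levels were therefore not distinguishable from 0 at this depth.

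Irf8 and Csf1r, the monocyte-side genes of the set, were also low. Irf8 (ENSMUSG00000041515, chromosome 8, 120736358 to 120756694, plus strand) had an FPKM of 0.187, 0.0979 and 0.0541 in labelled cKO 1, 2 and 3, against 0.474, 0.0612 and 0.647 in WT 1, 2 and 3. It had 50, 56 and 31 counts in the labelled cKO libraries, against 72, 32 and 25 in WT, in overlapping ranges. GENCODE M21 gives a further gene on the same strand over the whole of Irf8, so its reads cannot be told apart from those of that gene. Csf1r (ENSMUSG00000024621, chromosome 18, 61100598 to 61131134, plus strand) had an FPKM of 0.300, 0.129 and 0.0959 in labelled cKO 1, 2 and 3, against 0.488, 0.111 and 1.49 in WT 1, 2 and 3. It had 65, 61 and 44 counts in the labelled cKO libraries, against 62, 47 and 48 in WT, the narrowest range of the set among genes with a count in every library. With no filter, edgeR gave log2 fold changes of -0.04 (standard error 1.68) for Irf8 (adjusted p = 0.992) and -0.05 (standard error 1.80) for Csf1r (adjusted p = 0.991). The intervals implied by these standard errors include changes of several-fold in either direction. Siglech, a marker of plasmacytoid dendritic cells, which need IRF8, had 4 counts in WT 2 and none elsewhere. Bst2, another of the dendritic markers, was high in labelled cKO 1 and WT 2. It had 10618, 39 and 62 counts in labelled cKO 1, 2 and 3, against 101, 4795 and 62 in WT 1, 2 and 3.

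For the 5 genes with a count in every library and fewer than 200 in each, Mpo, Elane, Cebpa, Irf8 and Csf1r, the counts did not follow depth. Together they had 297, 198 and 158 counts in labelled cKO 1, 2 and 3, against 331, 166 and 173 in WT 1, 2 and 3, while the totals differed 18.5-fold. Their summed FPKM was 2.73, 0.620 and 0.508 in the labelled cKO libraries, against 4.56, 0.591 and 8.96 in WT. Each of the 5 had its highest FPKM in WT 3. The same held across the table: 2654 genes fell in this class, with a median of 21, 15 and 16 counts in the labelled cKO libraries, against 29, 18 and 19 in WT. Their median FPKM was 0.133, 0.0396 and 0.0458 in the labelled cKO libraries, against 0.312, 0.0567 and 0.795 in WT. A count was worth 13.1 times as much FPKM in WT 3 as in WT 2 (median over genes), so a WT mean of these low genes is set mainly by WT 3. Elane passed the filter through values of this kind, on 42, 24 and 8 counts.

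**Figure D3:**
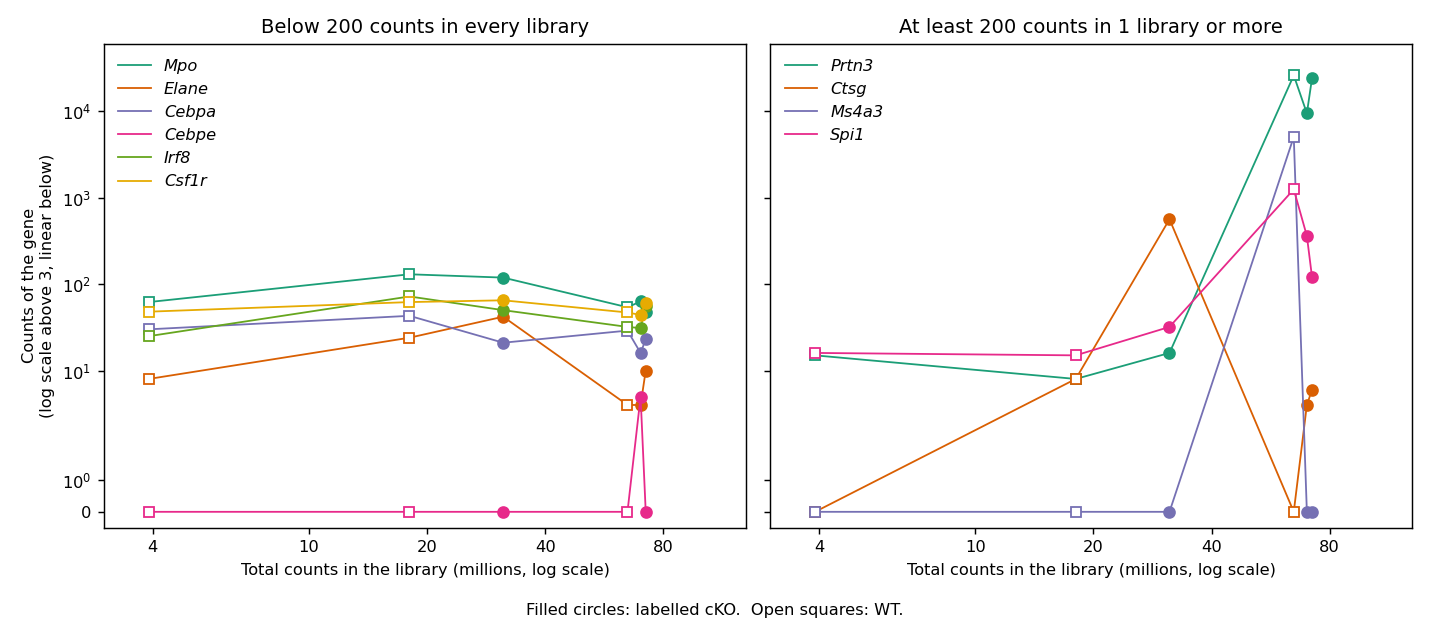
Counts of each gene against the total counts of the library, both on log scales (gene counts linear below 3), with lines joining the libraries of increasing depth, filled circles for labelled cKO and open squares for WT. Genes below 200 counts in every library (left) stayed between 0 and 130 counts at every depth, and Prtn3 (right) was at 8 to 16 counts in the 3 shallower libraries and at 9472 to 25998 in the 3 deeper ones.

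In the comparison of genotypes, 3 of the 10 genes passed the filter, Elane, Prtn3 and Spi1, out of 4173 genes tested. None of the 3 passed an adjusted p of 0.05 in edgeR, where 0% of all genes tested did, and none reached an unadjusted p under 0.05, where 6.88% of all genes (287) did, 142 higher (3.4%) and 145 lower (3.47%) in the labelled cKO. limma on log2(FPKM + 1) called 0 genes over all tested, with 199 (4.77%) at an unadjusted p under 0.05. DESeq2 called 298 genes (7.14%), again with none of the 3, at adjusted p of 0.591 for Elane, 0.859 for Prtn3 and 0.360 for Spi1. With no filter, edgeR called 163 of 19978 genes (0.816%) and none of the 10, and 2318 (11.6%) reached an unadjusted p under 0.05. The median log2 fold change over all genes tested was 1.10 with the TMM scaling used and 0.52 with median-of-ratios scaling. Relative to it, Elane lay at -1.76 and -2.01, Spi1 at -2.25 and -2.13, and Prtn3 at -0.35 and 0.10, where its sign flipped. The median of the 3 fold changes was -0.65, that of Elane.

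**Figure D4:**
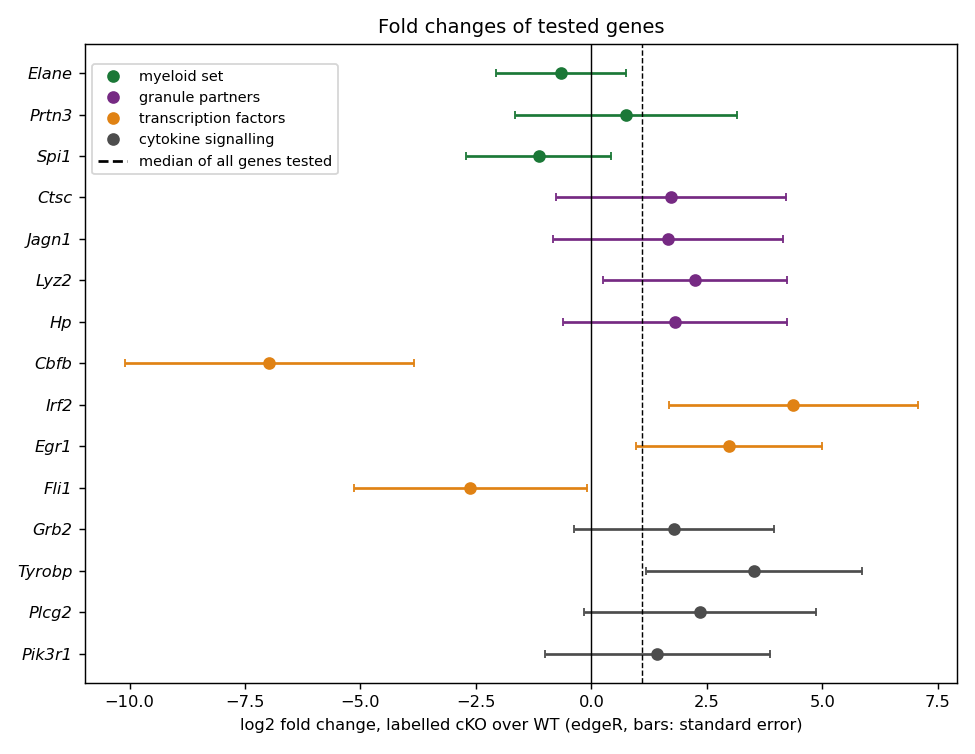
Log2 fold changes, labelled cKO over WT, with standard errors (edgeR) for the 3 genes of the set that were tested and for the genes named from the 3 related lists, with a dashed line at the median of all genes tested, 1.10. None passed an adjusted p of 0.05, and the standard errors ran from 1.41 for Elane to 3.13 for Cbfb.

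Some partners of the granule enzymes were seen in the same libraries as Prtn3, and none passed the test between genotypes. Of 19 genes listed for the processing, packing, sorting and inhibition of granule proteases or as their chromosomal neighbours, 17 were in the table and 12 were tested. None passed an adjusted p of 0.05 and none reached an unadjusted p under 0.05 (edgeR), with 7 of the 12 fold changes positive, where 67.9% of all genes tested were. Their median log2 fold change was 0.91, against 1.10 over all genes tested. Serglycin (Srgn), the proteoglycan that packs granule proteases, had FPKM values of 412, 959.8 and 994 in labelled cKO 1, 2 and 3, against 2375, 582 and 7.35 in WT. Several partners shared the order of Prtn3: 7 of the 12 were higher in each of the 3 deepest libraries than in each of the others, where 25.3% of all genes tested were. Ctsc, the peptidase that activates granule serine proteases, had 0.287, 28.4 and 43.0 in labelled cKO 1, 2 and 3, against 0.622, 27.6 and 1.29 in WT. Jagn1, needed for neutrophil granule formation, had 0.0826, 52.3 and 47.5 in the labelled cKO libraries, against 0.641, 42.2 and 1.26 in WT. Serpinb1a, an inhibitor of these proteases, had 10.997, 169 and 102 in the labelled cKO libraries, against 0.761, 197 and 2.70 in WT. Prtn3, its activator and its inhibitor were thus all seen in labelled cKO 2, labelled cKO 3 and WT 2. Lyz2, the lysozyme gene of myeloid cells, had the smallest p of the list, with 26.6, 1353 and 1175 in the labelled cKO libraries, against 42.3, 558 and 148 in WT. Its log2 fold change was 2.24 and its standard error 2.00 (edgeR, adjusted p = 0.747). Hp, the haptoglobin gene, was high in labelled cKO 2 alone among its genotype, with 4.10, 109 and 2.14, against 10.6, 2.54 and 32.5 in WT.

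**Figure D5:**
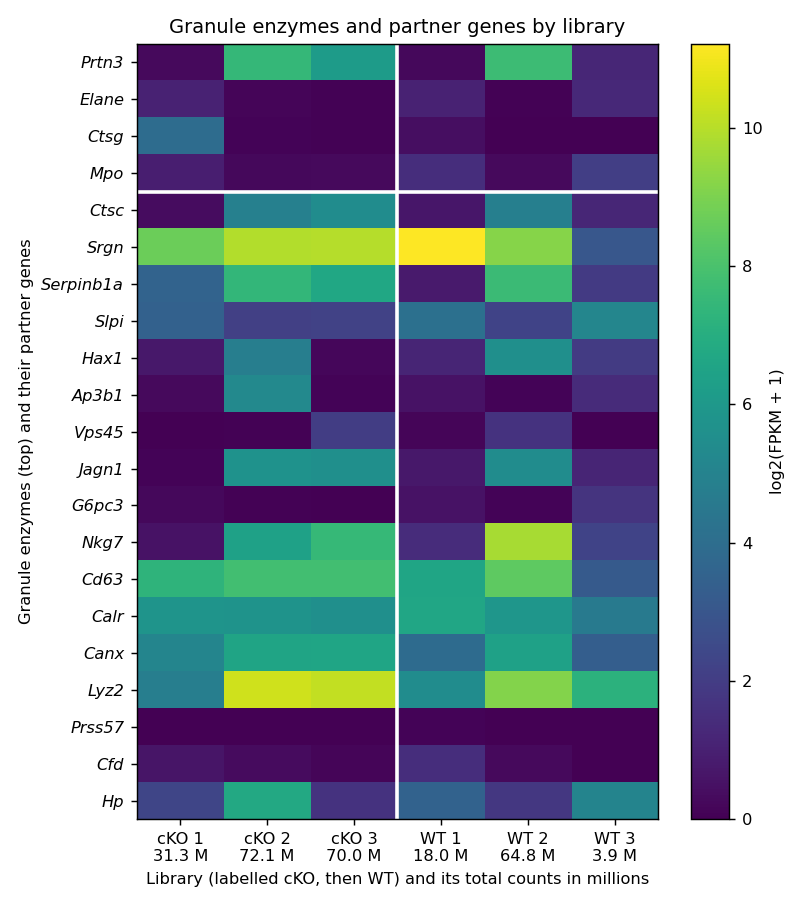
Level, as log2(FPKM + 1), of the 4 granule enzyme genes (top) and of the 17 partner genes in the table, in the libraries labelled cKO and WT, with the total counts under each. Prtn3, Ctsc, Jagn1 and Serpinb1a had their high values in labelled cKO 2, labelled cKO 3 and WT 2, while Srgn was high in all libraries except WT 3.

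Of 27 other genes of the myeloid transcription factor network, all in the table, 10 were tested. None passed an adjusted p of 0.05, 1 reached an unadjusted p under 0.05, and 5 of the 10 fold changes were positive (edgeR). Over all genes tested, 6.88% reached that unadjusted p and 67.9% were positive. The median log2 fold change of the list was 0.40, against 1.10 over all genes tested. Cbfb, whose product is the protein partner of RUNX1, had an FPKM of 0.520, 0.195 and 0.0546 in labelled cKO 1, 2 and 3, against 1.28, 138 and 2.82 in WT. Its FPKM ranges did not overlap, as for 11.6% of all genes tested, but WT 2 held 34872 counts and no other library more than 97, and the log2 fold change was -6.97 and its standard error 3.13 (edgeR, unadjusted p = 0.0260, adjusted p = 0.692). Irf2, an interferon regulatory factor, had 1.40, 18.5 and 13.2 in the labelled cKO libraries, against 0.226, 1.502 and 0.416 in WT (edgeR, log2 fold change 4.37, standard error 2.70, adjusted p = 0.730). Egr1, an immediate-early factor that can favour monocytes, had 626, 217 and 3.27 in the labelled cKO libraries, against 4.00, 142 and 11.2 in WT (edgeR, adjusted p = 0.734). Fli1, an ETS factor like PU.1, had 4.17, 2.28 and 4.996 in the labelled cKO libraries, against 0.165, 46.5 and 54.1 in WT (edgeR, adjusted p = 0.752). Irf2, Egr1 and Fli1 each had overlapping genotypes.

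Of 23 genes for myeloid cytokines, their receptors and CSF1R signalling, 21 were in the table and 5 were tested, none past an adjusted p of 0.05 and none at an unadjusted p under 0.05 (edgeR). Positive fold changes were seen for 4 of the 5, where 67.9% of all genes tested had one, and the median was 1.78, against 1.10 over all genes tested. Tyrobp, the adaptor DAP12, had 2.80, 28.0 and 146 in labelled cKO 1, 2 and 3, against 5.97, 0.525 and 11.9 in WT (edgeR, log2 fold change 3.52, standard error 2.34, adjusted p = 0.734). Plcg2, a phospholipase of this pathway, had 60.7, 6.65 and 63.2 in the labelled cKO libraries, against 0.142, 34.8 and 0.630 in WT (edgeR, adjusted p = 0.765). Grb2, an adaptor of receptor kinases, had 23.4, 6.02 and 0.198, against 1.19, 6.80 and 4.33 in WT (edgeR, adjusted p = 0.779). Pik3r1, a regulatory subunit of PI 3-kinase, had 3.28, 6.75 and 12.4, against 6.87, 1.17 and 0.712 in WT (edgeR, adjusted p = 0.833). The genotypes overlapped for each of these 4 genes.

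The genes whose profile over the 6 libraries lay nearest to the mean profile of the 4 granule enzymes were, among 3287 tested genes with a mean FPKM of at least 5, Aplp2, Rpl9-ps6, Ddx5, Gm3788 and Gm13436. Their root mean square distances on the log2(FPKM + 1) scale were 0.14, 0.29, 0.36, 0.43 and 0.45. The mean profile lay between -0.73 in WT 1 and 0.49 in WT 2 about its own mean, with Prtn3 and Ctsg high in different libraries. It was highest in the libraries with Prtn3, at 0.49 in WT 2, 0.46 in labelled cKO 2 and 0.12 in labelled cKO 3. Labelled cKO 1, the library with Ctsg, came next at 0.037. Its range was much smaller than that of Prtn3 or Ctsg, and the genes nearest to it did not have the wide range of either. Aplp2, a homologue of the amyloid precursor protein, had 5.95, 7.92 and 5.65 in labelled cKO 1, 2 and 3, against 2.31, 8.84 and 4.64 in WT. Ddx5, an RNA helicase, had 289, 331 and 324 in the labelled cKO libraries, against 293, 329.9 and 272 in WT.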

How the data were processed

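RNA was measured in 6 libraries of 100 sorted stem cells, 3 of each genotype label. Per the submitters' processing notes, reads went through software that included StringTie 2.1.6, HISAT2 2.2.1 and cutadapt 1.9, edgeR and DESeq2 are also named, and the build is GRCm39. The notes do not say which tool did what. The count per gene and library and the FPKM per gene and library are used as deposited by the authors. Between 40.2% and 48.8% of the counts from 1 to 40 in a library were multiples of 4, so small counts may not be single reads. Total counts ran from 3907259 to 72116120. The 10 genes, the gene lists and the motifs were chosen with earlier results of these data known.

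Genes with an FPKM of at least 1 in at least 3 libraries (4173 of 19978) were tested on counts with edgeR 4.0.16 (TMM scaling, quasi-likelihood test) in R 4.3.3, with Benjamini-Hochberg adjustment and a threshold of 0.05. limma 3.58.1 on log2(FPKM + 1), DESeq2 1.42.0, other scaling, no filter, a replicate block and left-out libraries were alternatives. The named genes were the 10, Piezo1, up to 4 per list by lowest p, and the 5 nearest in profile with a mean FPKM of at least 5. Other genes named were chosen after their values were seen. The main fit did not pair libraries by replicate number, since the labels do not say what a number marks.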

Additional observations from a re-analysis of the deposited data

How the results depend on the processing

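No setting called any of the 10 genes. Over all genes, edgeR called 0, against 163 with no filter, 298 with DESeq2 and 1 without WT 1 and WT 3, and 0 with each single library left out. The log2 fold change of Elane (-0.65) became 0.64 with no filter, which is also the median of the 3 tested genes there, and 3.41 without WT 1 and WT 3. That of Prtn3 (0.75) became -1.17 without WT 1 and WT 3. That fit holds 1 WT library, which is assumed to vary like the labelled cKO libraries, so it measures no WT spread. With 1 library left out, Elane ran from -5.17 (without labelled cKO 1) to -0.11, Prtn3 from -0.60 (without labelled cKO 2) to 7.01 (without WT 2), Spi1 from -1.99 (without labelled cKO 3) to 0.76 (without WT 2), and the median from -1.82 (without labelled cKO 1) to 0.76 (without WT 2). Piezo1 (1.20) was -0.16 with median-of-ratios scaling, DESeq2 and the replicate block, -0.32 with limma on log2(FPKM + 0.1), -0.084 without WT 1 and WT 3, and from -1.65 (without labelled cKO 2) to 2.06 (without WT 2) with 1 library left out. The cause was not tested. Adjusted p over the alternatives ran from 0.371 to 1.00 for Elane and from 0.278 to 1.00 for Prtn3. The replicate block called 0 genes. Same-numbered libraries had correlations of deviations of 0.13, 0.15 and -0.16, and 2 of 6 libraries correlated best with their own number.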
